A study of Mus musculus with 6 samples.

Results

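Dietary fatty acid enters the enterocyte, is carried in the cytosol, is activated to acyl-CoA and is stored for a time in lipid droplets before export. The genes described here cover these steps. They were given by name as 9 genes: Cd36 and Slc27a4 for uptake, Fabp1 and Fabp2 for binding in the cytosol, Acsl3 and Acsl5 for activation, and Plin2, Plin3 and Cideb for the lipid droplet. Of the 9, 8 had a probe set that the platform annotation pairs with exactly 1 gene symbol, out of 19938 genes with such a probe set. The probe set of Acsl3 is also assigned to Utp14b, so no value is given for Acsl3. Each of the 8 measured genes had 1 such probe set.

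Total RNA of whole ileum was measured on Affymetrix Mouse Gene 1.0 ST arrays, 1 array per mouse. The tested mice, labelled Gata6 KO (n = 3), carried Villin-CreERT2 and Gata6 flox/flox alleles, Gata6 being a zinc finger transcription factor. The control mice (n = 3) carried Villin-CreERT2 alone. All 6 mice were given tamoxifen on 5 consecutive days at 6 to 8 weeks of age, and the ileum was taken 28 days later. The Villin promoter drives the inducible Cre in intestinal epithelium, while the RNA came from the whole segment with its muscle, connective tissue, vessels and any attached fat. In such tissue, fewer cells of a type and less RNA per cell cannot be told apart. The labels call the replicates individual mice and give no sex.

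Long-chain fatty acids cross the brush border by diffusion and with the help of membrane proteins such as CD36, and are held in the cytosol by fatty acid binding proteins. Acyl-CoA synthetases of the ACSL and FATP families trap them as acyl-CoA, which is esterified to triglyceride in the endoplasmic reticulum. Triglyceride leaves in chylomicrons or is kept in droplets coated with perilipins. Most dietary fat is taken up upstream of the ileum, which is the final segment of the small bowel.

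Values below are log2 probe set signals. Changes are differences of means, Gata6 KO minus control, tested with limma across all 19938 genes, and a gene is said to rise or fall where its Benjamini-Hochberg adjusted p is under 0.05. SE is limma's moderated standard error. Within groups, the correlation between arrays was 0.990 to 0.992 (Gata6 KO) and 0.987 to 0.990 (control), and the number of arrays limits the precision. The median signal of all probe sets was 3.33 to 3.38 on the arrays labelled Gata6 KO and 3.41 to 3.44 on the control arrays. Gata6 itself read 6.94, 6.81 and 6.86 in the arrays labelled Gata6 KO, against 6.31, 6.33 and 6.50 in control arrays, a difference of 0.49 (SE 0.08) with a limma adjusted p of 0.0162. The targeted gene thus goes against the label, and every direction below is that of the arrays labelled Gata6 KO. The position of its probes relative to the deleted exons is not stated, and probes outside those exons check nothing. Control replicate 3 stood apart in sex-linked signal: Xist, transcribed from the inactive X chromosome of females, read 2.31 there, against 7.39 to 7.81 in the arrays labelled Gata6 KO and 7.57 and 7.65 in the other controls. The Y-linked gene Eif2s3y read 5.30 in control replicate 3 and 0.27 to 0.62 on the other arrays. The groups were thus not balanced in these signals. For members and other pathway genes, values without control replicate 3 are given where they change a call. For the cell marker genes named below, no fit without that array is given, so whether their calls hold without it is not shown.

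Of the 8 measured genes, 5 fell in the arrays labelled Gata6 KO, 1 rose and 2 did not pass. Over all genes, 3.25% fell, 4.99% rose and 8.24% changed in either direction. With arrays centred on their medians, 1562 genes rose and 565 fell, against 995 and 648 as deposited, and the members' counts were the same. The genes that fell were Fabp2, Slc27a4, Acsl5, Plin3 and Cideb, and the gene that rose was Plin2. Cd36 and Fabp1 did not pass. Without control replicate 3, 4 of the 8 genes fell and 0 rose, and over all genes 286 fell and 393 rose. That loss was not particular to this array: without Gata6 KO replicate 1 or 2, 3 of the 8 fell and 0 rose. The median log2 fold change of the 8 genes was -0.82, against 0.00 over all genes tested. These genes were named with results of these data known, so the counts describe them and test nothing about the group.

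**Figure D1:**
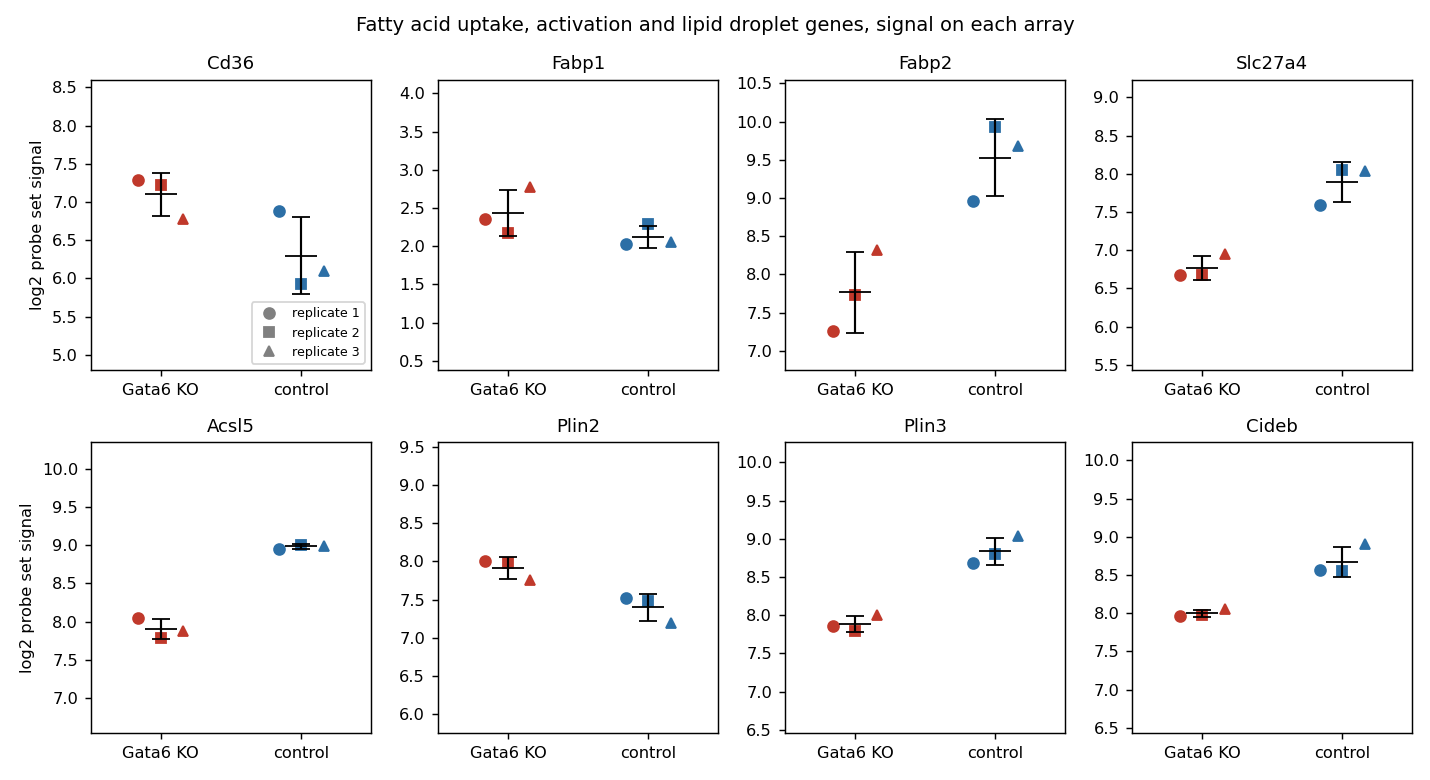
Log2 probe set signal of the 8 measured genes on each array. The Gata6 KO arrays (red) stand left of the control arrays (blue), symbols mark the replicate, bars show mean ± SD (n = 3), and each panel spans the same range of log2 units around its own mean. The groups are apart for 6 genes, as for 29.3% of all genes tested, and overlap for Cd36 and Fabp1.

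At the membrane, Slc27a4 fell and Cd36 did not pass. Slc27a4 encodes FATP4, the main fatty acid transport protein of enterocytes, which also has acyl-CoA synthetase activity. Its signal was 6.68, 6.68 and 6.95 in the arrays labelled Gata6 KO, against 7.59, 8.05 and 8.04 in control arrays. The groups did not overlap, as for 29.3% of all genes tested. The log2 fold change was -1.12 (SE 0.15), 2.18-fold lower, with a limma adjusted p of 0.00593. Its rank from the largest decrease was 178 of 19938 genes. Slc27a4 kept its call without any 1 array (adjusted p 0.00520 to 0.0386).

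Cd36, which encodes a fatty acid translocase and scavenger receptor, is also used by adipocytes, macrophages and capillary endothelium. Its signal was 7.29, 7.23 and 6.78 in the arrays labelled Gata6 KO, against 6.88, 5.93 and 6.09 in control arrays. Control replicate 1 lay above Gata6 KO replicate 3, so the groups overlapped. The difference of means was 0.80 (SE 0.26, 95% interval 0.19 to 1.41), which missed the threshold (limma adjusted p = 0.112). Without control replicate 1 the log2 fold change was 1.09 and the adjusted p 0.0244, and without any other array the adjusted p was 0.130 to 0.289.

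Markers of other cells that use Cd36 were read beside it. The mean log2 signal of 8 adipocyte genes was 5.25 to 5.56 in the arrays labelled Gata6 KO and 4.22 to 5.27 in control arrays, with control replicate 2 lowest. Of these 8 genes, Pck1, a gluconeogenic enzyme also used by fat, rose by 1.21 (SE 0.29, limma adjusted p = 0.0485) and 7 did not pass. The adipocyte hormone Adipoq read 5.43, 5.78 and 5.71 in the arrays labelled Gata6 KO, against 5.58, 3.76 and 5.12 in control arrays (limma adjusted p = 0.278). The resistin gene Retn read 5.57, 5.85 and 5.33 in the arrays labelled Gata6 KO, against 5.17, 4.12 and 4.80 in control arrays, and missed the threshold (limma adjusted p = 0.0914). The leptin gene Lep, picked with its values known, was below the array median on all 6 arrays. The mean of 9 macrophage genes was 5.81 to 6.42 in the arrays labelled Gata6 KO and 5.56 to 6.14 in control arrays, and that of 8 endothelial genes was 4.61 to 4.74 and 4.58 to 4.66 in the same groups. None of the macrophage or endothelial genes passed, among them the macrophage receptor Csf1r (log2 fold change 0.23, SE 0.17) and the endothelial adhesion molecule Pecam1 (0.02, SE 0.08). The smallest p values were those of Cd163 (0.62, SE 0.31) and Mrc1 (0.39, SE 0.19), and of Tek (0.22, SE 0.08) and Tie1 (0.20, SE 0.08). Log2 fold changes were positive for 7 of 9 macrophage genes (median 0.23) and 7 of 8 endothelial genes (median 0.06). Over all genes, 9804 of 19938 were positive. Control replicates 2 and 3, low for Cd36, were also low for the adipocyte list, and control replicate 3 was lowest for the macrophage list. The part of these cells in the Cd36 signal was not tested.

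**Figure D2:**
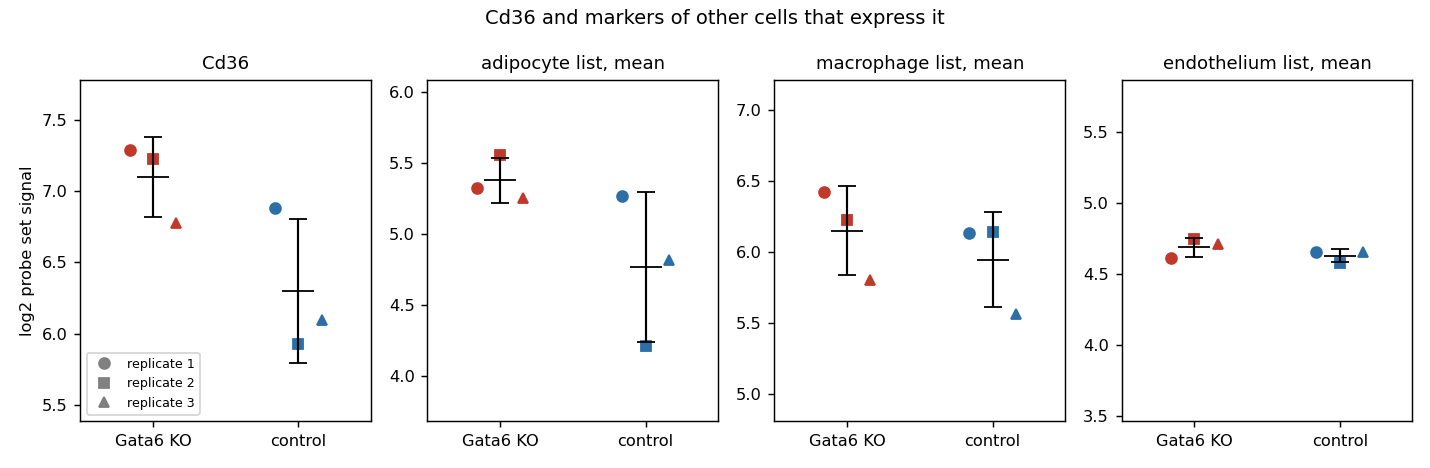
Log2 signal of Cd36 and mean log2 signal of the adipocyte, macrophage and endothelium lists on each array, Gata6 KO left and control right, with mean ± SD (n = 3). Control replicate 2 is lowest for Cd36 and for the adipocyte list, at 4.22, while the endothelium list stays within 4.58 to 4.74 on all arrays.

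The difference between the uptake genes was read within each array. Slc27a4 minus Cd36 was -0.61, -0.55 and 0.17 in the arrays labelled Gata6 KO, against 0.71, 2.12 and 1.95 in control arrays. The groups did not overlap, and their means differed by -1.92. An exact permutation test over the arrays, two-sided, gave p = 0.1, which is the smallest p that 3 arrays against 3 allow, and 0.1 after adjustment over 3 pairs. Without any 1 array labelled Gata6 KO, the same permutation test gave p = 0.2. Slc27a4 alone also separated the groups, so this difference is not independent of its result.

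The cytosolic binding proteins were represented by Fabp2 and Fabp1. Fabp2 encodes the intestinal fatty acid binding protein, found in absorptive cells along the small intestine, and had the largest change among the 8 genes. Its signal was 7.26, 7.73 and 8.32 in the arrays labelled Gata6 KO, against 8.96, 9.93 and 9.69 in control arrays. The groups did not overlap, though the SD was 0.53 in the arrays labelled Gata6 KO and 0.51 in control arrays. Fabp2 fell by 1.76 (SE 0.32), 3.38-fold lower, with a limma adjusted p of 0.0204, and ranked 72 of 19938 genes from the largest decrease. Fabp2 lost the call without Gata6 KO replicate 1 (0.0690) or 2 (0.0912), or without control replicate 2 (0.0577) or 3 (0.0879), with log2 fold changes of -2.04 to -1.50.

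Fabp1 encodes the liver fatty acid binding protein, which is shared by hepatocytes and enterocytes of the more proximal intestine. It read 2.35, 2.18 and 2.77 in the arrays labelled Gata6 KO, against 2.03, 2.29 and 2.05 in control arrays. All 6 values lay below the median of their array, so the probe set was not shown to detect Fabp1 in either group and no fold is given. The difference did not pass (limma adjusted p = 0.274, 95% interval -0.06 to 0.69 on the log2 scale). For the same reason Fabp1 is not set against Fabp2 within arrays.

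The promoters of the FABP pair are shown because their genes sit side by side in function while their probe sets differ in whether signal was seen in the ileum. Each sequence is from RefSeq (GRCm38.p6) and runs 5′ to 3′ on the strand of the gene, from 250 bases before the start to 50 after it. Capitals mark GATAA or GATAG preceded by A or T (4 words read by GATA factors), AGGTCA (the core of nuclear receptor elements, PPAR and HNF4 among them) and TATAAA, searched on both strands. The Fabp1 window lies at chr6:71199629-71199928, plus strand, and the Fabp2 window at chr3:122894822-122895121, plus strand.
Fabp1: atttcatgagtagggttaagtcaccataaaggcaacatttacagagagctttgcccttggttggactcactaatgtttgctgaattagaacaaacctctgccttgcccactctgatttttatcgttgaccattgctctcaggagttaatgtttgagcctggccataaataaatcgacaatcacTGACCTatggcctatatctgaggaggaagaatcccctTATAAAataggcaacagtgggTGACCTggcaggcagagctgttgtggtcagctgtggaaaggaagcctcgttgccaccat
Fabp2: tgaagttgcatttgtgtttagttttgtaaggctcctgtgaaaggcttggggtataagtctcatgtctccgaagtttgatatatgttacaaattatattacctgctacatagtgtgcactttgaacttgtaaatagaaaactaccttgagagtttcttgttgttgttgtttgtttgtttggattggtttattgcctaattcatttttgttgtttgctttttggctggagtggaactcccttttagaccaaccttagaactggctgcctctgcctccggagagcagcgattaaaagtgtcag
The Fabp1 window holds AGGTCA in reverse at bases 184 to 189 and 242 to 247, and TATAAA at 221 to 226, counted from 1 at the 5′ end. The Fabp2 window holds none of these words. Over all 32851 promoter windows, 16.3% held AGGTCA, 13.6% TATAAA and 29.8% at least 1 of the 4 GATA words. The word TTTAT, similar to the core of CDX elements and overlapping TATAAA by 5 bases in reverse, was found in 40.0% of windows, in Fabp1 at 5 positions and in Fabp2 at 1. No member held 2 AGGTCA words on 1 strand with 1 base between, a spacing found in 0.0396% of windows. These matches describe letters and say nothing about binding.

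Activation of fatty acids was represented by Acsl5, a long-chain acyl-CoA synthetase of mitochondria and endoplasmic reticulum that is abundant in small intestine. Acsl5 had the smallest p of the 8 genes. Its signal was 8.04, 7.79 and 7.88 in the arrays labelled Gata6 KO, against 8.95, 9.01 and 8.99 in control arrays. The control arrays lay within 0.06 of each other and above all arrays labelled Gata6 KO. Acsl5 fell by 1.08 (SE 0.09), 2.11-fold lower, with a limma adjusted p of 0.00108. It kept its call without any 1 array (0.00535 to 0.00997) and was the 1 member that passed without moderation of the variances (0.0330). A comparison of Acsl5 with Acsl3, which encodes an isoenzyme of the endoplasmic reticulum and of growing droplets, could not be made for want of a probe set that is Acsl3 alone.

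On the lipid droplet, the perilipin genes Plin2 and Plin3 moved in opposite directions, with the call of Plin2 close to the threshold. Plin3 encodes a coat protein that moves from the cytosol to new droplets in enterocytes after a fat meal. Its signal was 7.85, 7.79 and 8.00 in the arrays labelled Gata6 KO, against 8.68, 8.80 and 9.03 in control arrays. The groups were apart by more than the range within either. Plin3 fell by 0.96 (SE 0.11), 1.94-fold lower, with a limma adjusted p of 0.00364, and 0.00794 to 0.0256 without any 1 array.

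Plin2 encodes the perilipin that stays on droplets and is a known target of PPAR receptors. It read 8.00, 7.99 and 7.75 in the arrays labelled Gata6 KO, against 7.52, 7.49 and 7.19 in control arrays. The lowest value labelled Gata6 KO lay above the highest control. The log2 fold change was 0.51 (SE 0.12), 1.43-fold higher, with a limma adjusted p of 0.0424. That call is close to the threshold and was lost without any 1 of the 6 arrays (0.0637 to 0.154), among them control replicate 3 (log2 fold change 0.41, adjusted p 0.111).

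Plin2 minus Plin3 within arrays was 0.15, 0.20 and -0.24 in the arrays labelled Gata6 KO, against -1.16, -1.32 and -1.84 in control arrays. The means differed by 1.47 on the log2 scale. Plin2 lay wholly above control and Plin3 wholly below it, so the groups could not overlap in this difference. The exact permutation p was thereby fixed at 0.1, the smallest possible (0.1 after adjustment over the 3 pairs), and adds nothing to the results of each gene. Leaving out any 1 array kept this difference between 1.27 and 1.61.

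The promoters of this pair are shown because the genes moved in opposite directions. Both sequences follow the conventions given for the FABP pair. The Plin2 window lies at chr4:86670010-86670309, minus strand, and the Plin3 window at chr17:56290462-56290761, minus strand.
Plin2: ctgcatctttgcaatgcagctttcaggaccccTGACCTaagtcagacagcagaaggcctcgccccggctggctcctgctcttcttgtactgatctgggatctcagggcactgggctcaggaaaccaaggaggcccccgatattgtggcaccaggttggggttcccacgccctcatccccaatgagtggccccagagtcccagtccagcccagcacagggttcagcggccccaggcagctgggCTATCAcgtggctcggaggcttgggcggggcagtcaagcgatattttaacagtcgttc
Plin3: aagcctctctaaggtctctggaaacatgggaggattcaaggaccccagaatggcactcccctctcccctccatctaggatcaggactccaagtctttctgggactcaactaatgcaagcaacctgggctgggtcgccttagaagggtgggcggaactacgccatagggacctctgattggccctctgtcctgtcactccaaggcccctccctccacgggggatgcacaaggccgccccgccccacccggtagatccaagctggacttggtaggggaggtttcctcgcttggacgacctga
Plin2 held a GATA word in reverse at bases 243 to 248 and AGGTCA in reverse at bases 33 to 38, and Plin3 held none of the words. Of all 9 genes, Acsl3 and Plin2 held a GATA word, that is 2 of 9, where 29.8% of all windows held one. None of the 5 genes that fell held one, and neither did Cd36 or Fabp1, which did not pass.

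Cideb encodes a protein of the endoplasmic reticulum and droplet surface that is needed for full lipidation of triglyceride-rich lipoproteins in liver and intestine. Its signal was 7.96, 7.97 and 8.06 in the arrays labelled Gata6 KO, against 8.56, 8.55 and 8.90 in control arrays. The arrays labelled Gata6 KO lay close together, and the groups did not overlap. Cideb fell by 0.67 (SE 0.11), 1.60-fold lower, with a limma adjusted p of 0.0134. Cideb lost the call without Gata6 KO replicate 1 (0.0571) or 2 (0.0663) and kept it without any other array (0.0253 to 0.0477).

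**Figure D3:**
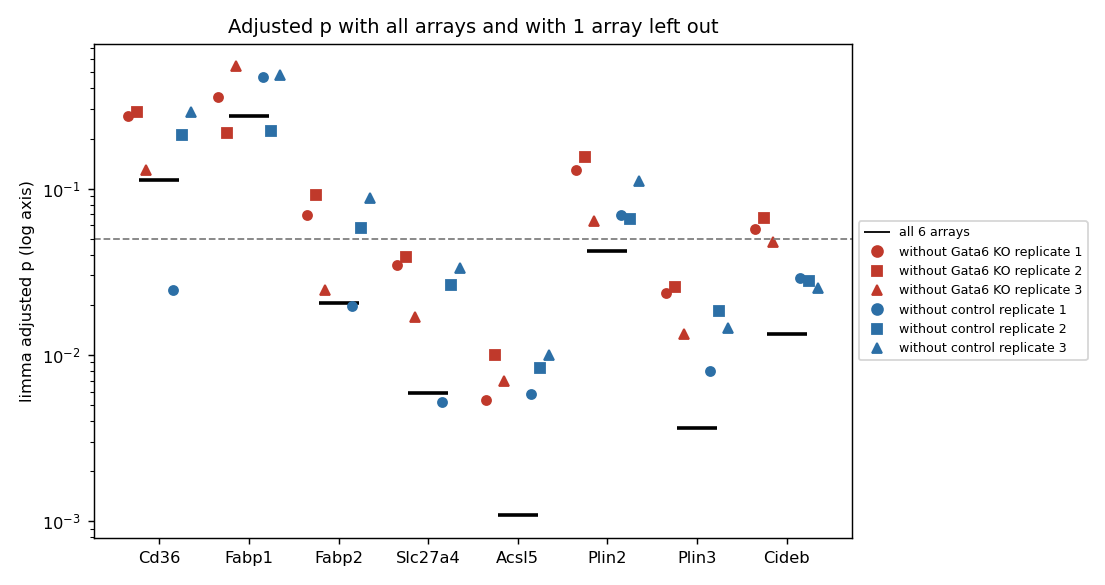
Limma adjusted p (log axis) of the 8 genes with all 6 arrays (black bar) and with 1 array left out (red symbols: a Gata6 KO array, blue symbols: a control array). The dashed line is the threshold of 0.05. Slc27a4, Acsl5 and Plin3 stay below it in every case, Plin2 is above it in each of the 6 smaller fits, and Cd36 is below it only without control replicate 1, at 0.0244.

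The array labelled Gata6 KO that lay nearest to the control mean was replicate 3 for 5 of the 6 genes that passed, all but Acsl5, for which it was replicate 1. Over all 1643 genes that passed, replicate 3 was nearest in 35.2%, replicate 1 in 43.6% and replicate 2 in 21.2%. The 5 genes share these 3 arrays, so they are not independent readings.

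Epithelial content was read from 10 general epithelial genes. Their mean log2 signal was 9.83 to 9.96 in the arrays labelled Gata6 KO and 9.78 to 9.94 in control arrays. Epcam, the epithelial adhesion molecule, read 9.97, 9.98 and 10.09 in the arrays labelled Gata6 KO, against 9.88, 10.02 and 10.02 in control arrays, and missed the threshold (limma adjusted p = 0.804). Vil1, the brush border protein villin, fell by 0.41 (SE 0.08, limma adjusted p = 0.0225), and Krt19 rose by 0.33 (SE 0.07, limma adjusted p = 0.0394). The other 8 genes did not pass, and the part of epithelial content in the members' changes was not tested.

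Other genes of the pathway were read from 7 lists by role. Of 93 measured genes, 11 rose and 4 fell in the arrays labelled Gata6 KO, and the median log2 fold change was 0.05. In the same fit with all 6 arrays, 4.99% of all genes rose (995) and 3.25% fell (648). Without control replicate 3, 6 of the 93 rose and 1 fell, and over all genes 393 rose and 286 fell. The members and the genes of these lists were all chosen with earlier results of these data known. The counts here thus describe the lists, test nothing about them and are not set against those of the members.

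**Figure D4:**
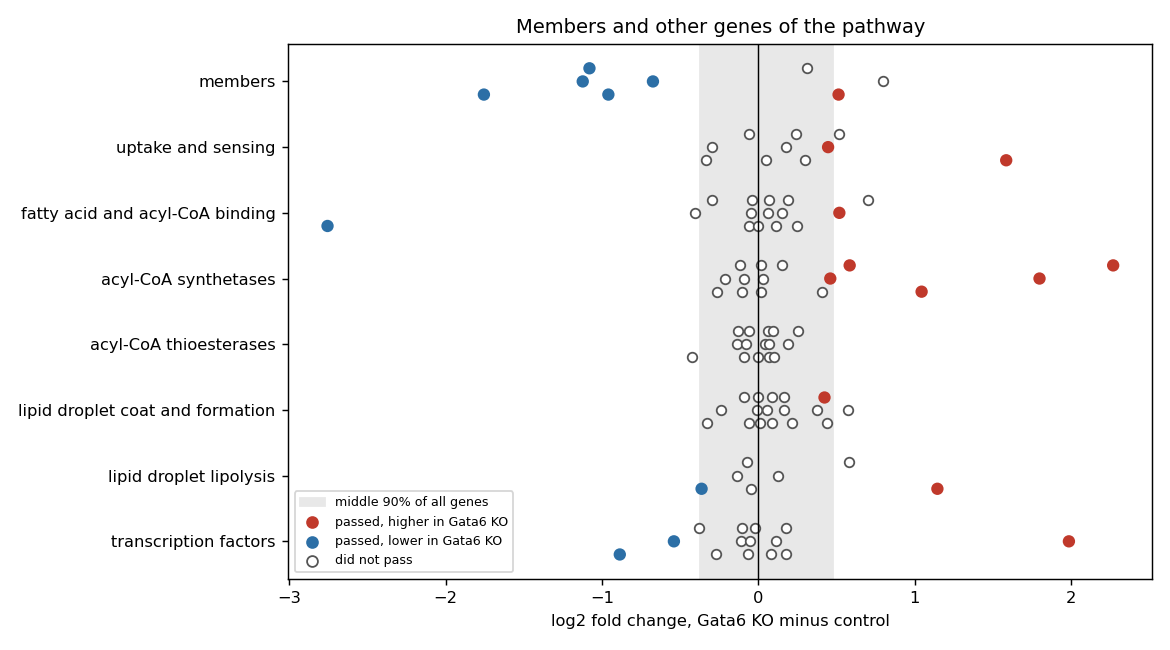
Log2 fold change, Gata6 KO minus control, of the 8 members (top) and of 93 other genes in 7 lists, 1 point per gene. Filled points passed (red higher, blue lower), open points did not, and the grey band holds the middle 90% of all genes. Members that passed lie mostly left of 0, and the synthetases that passed, 5 of 15, lie right of it. Over all genes 4.99% rose and 3.25% fell.

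Among other acyl-CoA synthetases, 5 of 15 measured rose and none fell. Over all genes 4.99% rose and 3.25% fell, the shares to read beside this count and the list counts below. The medium-chain synthetase gene Acsm3 read 6.48, 6.85 and 7.06 in the arrays labelled Gata6 KO, against 4.43, 4.67 and 4.49 in control arrays. Its log2 fold change was 2.27 (SE 0.15, limma adjusted p = 6.41e-04), the largest increase among the 93 genes. Acsf2, of the same enzyme superfamily, read 7.38, 7.89 and 7.82 in the arrays labelled Gata6 KO, against 6.17, 5.74 and 5.79 in control arrays (log2 fold change 1.80, SE 0.17, limma adjusted p = 0.00165). Acsl4, which prefers arachidonic acid, read 5.93, 5.86 and 5.86 in the arrays labelled Gata6 KO, against 5.18, 5.05 and 4.30 in control arrays. It rose by 1.04 (SE 0.22, limma adjusted p = 0.0303), a call lost without any 1 array labelled Gata6 KO or control replicate 2 (up to 0.112). The acetate-activating Acss2 and the related Acss3 rose by 0.58 (SE 0.10) and 0.46 (SE 0.08), calls lost in 3 and 4 of the 6 fits without 1 array, among them the fit without control replicate 3 (0.0599 and 0.0728). Acsl5 thus fell while Acsl4, of its own family, rose. None of 15 acyl-CoA thioesterase genes, which release fatty acid from acyl-CoA, passed.

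Among 15 other binding protein genes, Fabp6 fell, Fabp5 rose and 13 did not pass. Fabp6, the bile acid binding protein of the ileum, read 7.07, 7.73 and 8.55 in the arrays labelled Gata6 KO, against 10.50, 10.44 and 10.67 in control arrays (log2 fold change -2.76, SE 0.33, limma adjusted p = 0.00410). Replicate 1 was lowest and replicate 3 highest among the arrays labelled Gata6 KO for Fabp6, as for Fabp2. Fabp5, the epidermal type, read 4.24, 4.31 and 4.02 in the arrays labelled Gata6 KO, against 3.71, 3.62 and 3.69 in control arrays (log2 fold change 0.52, SE 0.10, limma adjusted p = 0.0206), and kept its call only without Gata6 KO replicate 3 among the 6 smaller fits (0.0225, against up to 0.0848). Without control replicate 3 it had 0.0745. Dbi, the acyl-CoA binding protein, read 8.91, 8.88 and 8.89 in the arrays labelled Gata6 KO, against 8.87, 8.94 and 9.06 in control arrays, and missed the threshold (limma adjusted p = 0.674). Dbi was picked with its value known.

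Of 10 other uptake and sensing genes, Ffar4 and Cav1 rose and none fell. Ffar4, the receptor for long-chain fatty acids also called GPR120, read 6.51, 5.73 and 6.37 in the arrays labelled Gata6 KO, against 4.44, 4.70 and 4.71 in control arrays. Its log2 fold change was 1.59 (SE 0.20, limma adjusted p = 0.00527). The caveolar protein gene Cav1, also used by smooth muscle, fat and endothelium, rose by 0.45 (SE 0.09, limma adjusted p = 0.0306). That call was lost in 5 of the 6 fits without 1 array (up to 0.122), among them the fit without control replicate 3 (0.0971). The 8 smooth muscle genes also all had a positive log2 fold change, with a median of 0.35, and their part in the Cav1 signal was not tested. The other 5 members of the FATP family, Slc27a1, Slc27a2, Slc27a3, Slc27a5 and Slc27a6, did not pass, with log2 fold changes of -0.34 to 0.52.

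Of 17 genes of droplet coat and formation, Bscl2, which encodes seipin at the sites of droplet budding, rose by 0.42 (SE 0.08, limma adjusted p = 0.0275) and 16 did not pass. Bscl2 lost its call without any 1 array labelled Gata6 KO (up to 0.0941) or without control replicate 3 (0.0709). Plin1, the perilipin of adipocytes, and Plin4 and Plin5 were among those that did not pass, and were picked with their values known. Of 7 lipolysis genes, Mgll rose and Lipe fell. Mgll, which splits monoglyceride, read 6.33, 6.58 and 6.63 in the arrays labelled Gata6 KO, against 5.55, 5.12 and 5.44 in control arrays (log2 fold change 1.15, SE 0.13, limma adjusted p = 0.00387). Lipe, hormone-sensitive lipase, fell by 0.36 (SE 0.09, limma adjusted p = 0.0488), a call lost in 5 of the 6 fits without 1 array (up to 0.143, without control replicate 3).

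Of 14 transcription factors and coactivators linked to these genes, Pparg rose, Hnf4g and Nr1h3 fell, and 11 did not pass. Pparg, the nuclear receptor for fatty acid ligands used by adipocytes and by distal gut epithelium, read 7.47, 7.82 and 7.64 in the arrays labelled Gata6 KO, against 6.04, 5.57 and 5.36 in control arrays. It rose by 1.99 (SE 0.18, limma adjusted p = 0.00144) and kept its call without any 1 array (0.00186 to 0.0128). Of the adipocyte list, given above beside Cd36, 7 of 8 genes had a positive log2 fold change, with a median of 0.76. The groups did not overlap for 4 of 8, against 29.3% of all genes tested. Of these 4, Lep was lower in the arrays labelled Gata6 KO. The part of the adipocyte list in the Pparg signal was not tested. Hnf4g, an intestinal nuclear receptor, fell by 0.54 (SE 0.12, limma adjusted p = 0.0369), a call lost without any 1 array (0.0522 to 0.126, and 0.105 without control replicate 3). Nr1h3, the oxysterol receptor LXR alpha, fell by 0.89 (SE 0.15, limma adjusted p = 0.0146) and lost its call without control replicate 3 (0.0643). Ppara, Ppard and Hnf4a did not pass, with log2 fold changes of -0.27, 0.11 and -0.10, and these 3 were picked with their values known.

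**Figure D5:**
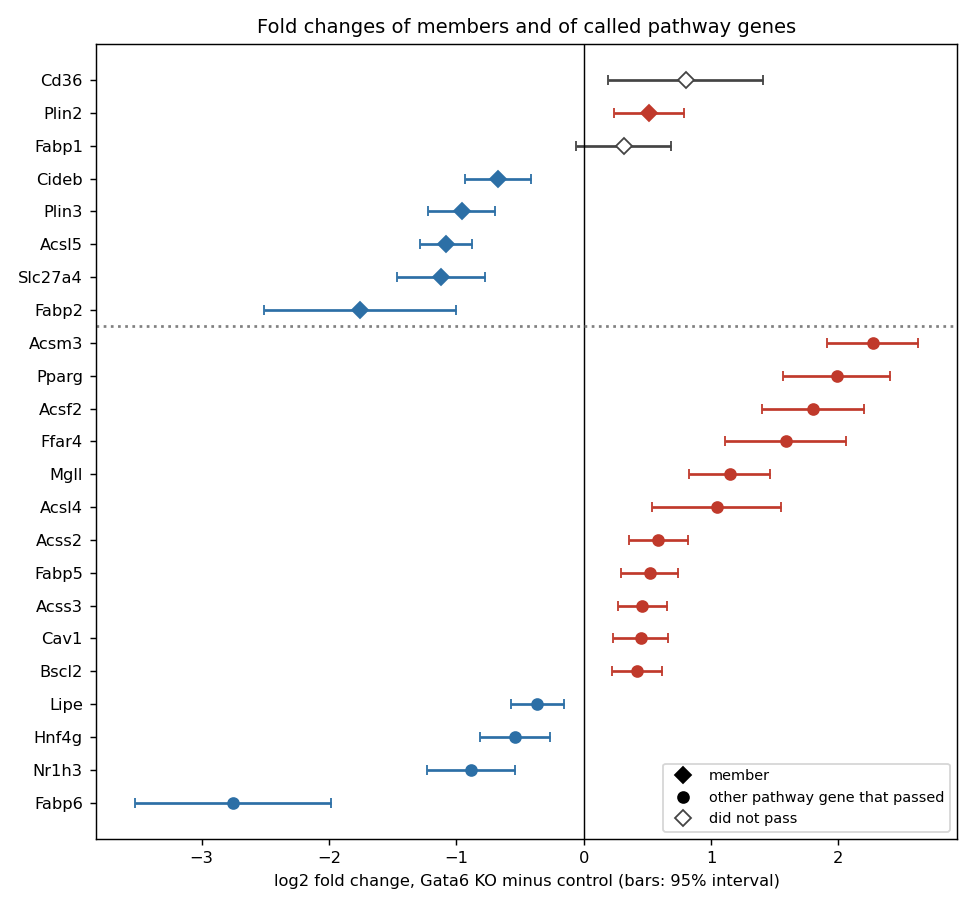
Log2 fold change, Gata6 KO minus control, with its 95% interval for the 8 members (diamonds, above the dotted line) and the 15 other pathway genes that passed (circles). Open diamonds did not pass. Fabp2 has the lowest value of the members, at -1.76, and a wide interval, while Acsl5 has the narrowest.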

How the data were processed

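The table the authors deposited holds log2 signals of probe sets for each mouse. Affymetrix Expression Console was the software, per the submitters' processing notes. How background was corrected and arrays were normalized is not stated, and base 2 was taken from the range of the signals. Of 35557 probe sets, the platform annotation pairs 21789 with 1 symbol and 1621 with several, which were not used for genes. For each gene the probe set with the highest mean over 6 arrays was kept, 19938 genes in all, with no filter on dim genes.

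The contrast was fitted in R 4.3.3 with limma 3.58.1 (lmFit, eBayes, two-sided, Benjamini-Hochberg over all genes, threshold 0.05). Within-array differences between pairs of members used exact permutation tests. Of 3 pairs run, Fabp1 and Fabp2 is not reported because Fabp1 lay below the array medians. The fourth pair, Acsl5 and Acsl3, was left out because Acsl3 has no probe set of its own. The members and lists were chosen with earlier results of these data known. Named genes are all members, Gata6, Xist and Eif2s3y, the listed pathway genes that passed (up to 6 per list), and genes of each cell list taken from the gene written first and the 2 with the smallest p. Other genes are marked in the text, were only counted, or are the FATP family. Some listed genes, Acsl1 and Cfd among them, are not reported here. Promoter windows are those of RefSeq GRCm38.p6, matched by symbol for all 9 genes. Alternatives covered scaling, dim genes, probe sets, moderation, array weights, pairing and left-out arrays.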

Additional observations from a re-analysis of the deposited data

How the results depend on the processing

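Directions held for all 8 measured members under every alternative run, and 104 of 127 such checks kept the side of the threshold. Only scaling, array weights and left-out arrays can change a member's fold change, so the other alternatives could not alter a direction. Fabp1, which was not shown to be detected, is among the 8. The count of members that rose, 1, was 0 with every probe set tested on its own, without moderation and at a threshold of 0.01, and 0 to 1 with 1 array left out. The count that fell, 5, was 1 without moderation, 3 at 0.01, and 3 to 5 with 1 array left out. Pathway genes that rose, 11, numbered 6 over every probe set, 1 without moderation, 5 at 0.01, and 5 to 10 with 1 array left out. Those that fell, 4, numbered 1 over every probe set, 0 without moderation, 1 at 0.01, 2 with the replicate block, and 1 to 3 with 1 array left out. Over all genes the 995 that rose became 1562 with arrays centred on their medians, 491 over every probe set, 168 without moderation, 277 at 0.01, and 320 to 806 with 1 array left out. The 648 that fell became 406 over every probe set, 106 without moderation, 229 at 0.01, and 277 to 597 with 1 array left out. A stricter threshold can only lower such counts. Fewer arrays or more features need not, and Cd36 passed only without control replicate 1. The 491 and 406 count probe sets among all 35557, not genes.

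With arrays centred on their medians, fold changes were higher by 0.06 on the log2 scale, and Cd36 then had an adjusted p of 0.0522. Without moderation the adjusted p of Fabp2, Slc27a4, Plin2, Plin3 and Cideb was 0.0600 to 0.152. Over every probe set Fabp2 had 0.0665 and Plin2 0.102. Replicate numbers were not taken to pair the samples. Deviations from the group means of same-numbered arrays correlated at 0.04, -0.04 and 0.15, and those of differently numbered arrays at -0.12 to 0.08. These correlations cannot exclude a pairing. With the number as a block, no member changed its call, and Lipe, Cav1, Bscl2 and Hnf4g lost theirs (adjusted p 0.0513 to 0.0999). The within-array differences ranged from 1.27 to 1.61 (Plin2 minus Plin3) and -2.36 to -1.66 (Slc27a4 minus Cd36) with 1 array left out. With 3 arrays per group, the exact tests cannot go below 0.1.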

Other observations

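Other cell lists gave the following values. All 8 smooth muscle genes had a positive log2 fold change, with a median of 0.35. The groups did not overlap for 4 of the 8, against 29.3% of all genes tested. They averaged 7.98 to 8.38 in the arrays labelled Gata6 KO and 7.80 to 7.99 in control arrays, and Tagln was the 1 of 8 that passed, higher by 0.46 (SE 0.10, limma adjusted p = 0.0389). Myh11 read 9.41, 9.81 and 9.67 in the arrays labelled Gata6 KO, against 9.13, 9.38 and 9.12 in control arrays, and missed the threshold (limma adjusted p = 0.0903). None of 9 lymphoid genes passed, Ptprc among them (log2 fold change 0.22, SE 0.15), and their mean was 4.21 to 4.48 in the arrays labelled Gata6 KO and 4.23 to 4.41 in control arrays. None of 6 hepatocyte genes passed, but Alb, the albumin gene, read 4.32 in Gata6 KO replicate 2 and 2.06 and 2.95 in the other arrays so labelled, against 2.01, 2.07 and 1.77 in control arrays (limma adjusted p = 0.204).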
